A study of Mus musculus with 8 samples.

Results

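Interferon response genes are the genes whose mRNA cells make more of once interferon has bound its receptor. The 37 genes described here were chosen by name. A probe belonged to a gene where its name in the array annotation was the gene's symbol or an older alias, and the brightest such probe stood for the gene. By this rule 36 of the 37 genes had a probe, among 28595 gene names on the array, and Xaf1, an interferon-induced partner of an apoptosis inhibitor, was not analysed on the arrays here.

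Type I interferons signal through the kinases Jak1 and Tyk2 to a complex with Stat2 and Irf9, which binds the interferon-stimulated response element in promoters. Interferon gamma signals through Jak1 and Jak2 to gamma-activated sites in promoters and induces Irf1. Type III interferons, to which gut epithelial cells respond, use the same kinases and complex as type I, and intraepithelial lymphocytes and other immune cells are among the sources of interferon. The induced proteins include the oligoadenylate synthetases and Ifit proteins, which act on viral RNA, and the immunity-related GTPases and guanylate-binding proteins, which attack the vacuoles of intracellular microbes.

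The study used two-colour arrays of mouse small intestine, 8 in all, to compare Ascl2-deleted with control epithelium and GFPhi with GFPlo crypt cells. The deleted epithelium came from Ah-Cre/Ascl2floxed/floxed animals and the control from Ah-Cre/Ascl2floxed/wt animals, 3 and 5 days post induction. Both genotypes thus carried the Ah-Cre transgene, which places Cre under a drug-inducible promoter, and at least 1 floxed copy of Ascl2, although the sample titles call the controls wild type. GFPhi and GFPlo cells were sorted from Lgr5-EGFP-ires-CreERT2 mice, whose GFP is driven by the promoter of the stem cell gene Lgr5, in 2 sorts that each pooled 3 mice. Ages and the number of animals behind each deletion pair are not given in the sources used here. The 4 RNA pairs had 2 dye-swapped arrays each, which were averaged to 1 replicate. Each RNA pair also had a slide of its own, so a day of the deletion cannot be told apart from the animals and the slide of that day.

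The share of probes well above background in an RNA was 54.6% to 66.4% in the deletion and 35.1% to 44.5% in the sorts. Ascl2 had log2 ratios of deleted over control of -1.36 and -1.30 on day 3 and -1.34 and -1.29 on day 5. Of 13 listed names of epithelial markers, among them both Epcam and Tacstd1, 12 are names in the array annotation, such as Tacstd1, Vil1 and Cdh1. All 12 were tested in both comparisons. Precision is limited by the number of arrays. In bulk RNA, fewer cells of a type and less RNA per cell cannot be told apart.

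Genes entered a test when the signal of 1 of the 2 RNAs stood well above background on all arrays of that comparison. In the deletion 35 members passed, the exception being Mx1, and in the sorts 21 did. Probe positions below are those of mouse build mm8 in the array files, and which exon a probe lies in was not determined.

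The promoters of 7 members are shown because these members carry the 2 patterns described below, and because members that moved together can be read against them. RefSeq (GRCm38.p6) gave a promoter, 250 bases before to 50 bases after the start, for 28 of the 37 members. The 150 bases before the start are printed. Capitals mark the core of the interferon-stimulated response element, spelled here as GAAA, any 2 bases and GAAA (read on the other strand as TTTC, any 2 bases and TTTC), or the gamma-activated site, spelled as TTC, any 3 bases and GAA, which reads the same on both strands. The first 3 genes were lower in deleted epithelium on day 3 and the last 4 lower on day 5.
Igtp: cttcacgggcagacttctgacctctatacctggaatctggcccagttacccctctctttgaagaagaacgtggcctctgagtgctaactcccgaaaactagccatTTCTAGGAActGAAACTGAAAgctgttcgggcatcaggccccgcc
Irgm1: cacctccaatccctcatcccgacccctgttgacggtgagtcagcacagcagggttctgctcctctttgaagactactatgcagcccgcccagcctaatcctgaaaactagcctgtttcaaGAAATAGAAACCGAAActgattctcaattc
Gbp2: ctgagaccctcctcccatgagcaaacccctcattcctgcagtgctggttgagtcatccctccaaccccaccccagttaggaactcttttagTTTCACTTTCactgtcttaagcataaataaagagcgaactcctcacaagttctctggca
Isg15: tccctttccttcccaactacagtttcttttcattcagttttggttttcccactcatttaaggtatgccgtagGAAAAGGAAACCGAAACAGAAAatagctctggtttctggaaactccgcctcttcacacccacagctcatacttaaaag
Ifit1: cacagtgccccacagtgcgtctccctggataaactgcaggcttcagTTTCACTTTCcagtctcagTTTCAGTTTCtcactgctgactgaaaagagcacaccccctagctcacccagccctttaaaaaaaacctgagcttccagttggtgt
Rsad2: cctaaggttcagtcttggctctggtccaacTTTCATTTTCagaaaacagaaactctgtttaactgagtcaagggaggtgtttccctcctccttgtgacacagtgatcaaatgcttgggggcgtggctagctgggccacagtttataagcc
Oas1a: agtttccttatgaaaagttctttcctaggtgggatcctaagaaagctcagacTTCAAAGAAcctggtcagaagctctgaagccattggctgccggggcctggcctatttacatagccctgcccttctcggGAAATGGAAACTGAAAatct

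These windows lie at chr11:58199406-58199555 (plus strand) for Igtp, chr11:48871421-48871570 (minus strand) for Irgm1, chr3:142620513-142620662 (plus strand) for Gbp2 and chr4:156200819-156200968 (minus strand) for Isg15. Those of the other genes lie at chr19:34640739-34640888 (plus strand) for Ifit1, chr12:26456453-26456602 (minus strand) for Rsad2 and chr5:120907526-120907675 (minus strand) for Oas1a. Igtp and Oas1a have a gamma-activated site followed by the response element core, of which Oas1a holds 2 overlapping copies. Irgm1 likewise has 2 overlapping copies and Isg15 has 3, while Ifit1 has 2 separate ones. Over the full 300 bases, the response element core was found in 17 of the 28 members (60.7%), against 3.99% of all 27025 genes with a promoter. The gamma-activated site was found in 9 of 28 (32.1%), against 9.55% of all genes, and both motifs in 5 of 28, against 0.614%. All 4 GTPase members with a promoter (Igtp, Irgm1, Gbp2, Gbp3) hold the response element core. Of members past the test with a lower ratio on day 5 than on day 3, it was found in Ifih1, Ifit1, Ifit3, Isg15, Oas1a, Oas3 and Rsad2, and not in these windows of Ifi44, Irf7, Irf9, Oasl1, Oasl2 and Trim25.

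On day 3 the lowest members in deleted epithelium were the interferon-inducible GTPases Igtp, Irgm1 and Iigp1. All 5 GTPases tested were below control on both day 3 arrays, against 39.5% of all genes tested, with a median log2 ratio of -1.60, and on day 5 the median of the same 5 genes was 0.68 with 3 of them above control on both arrays (31.8% of all genes). Igtp, an immunity-related GTPase needed for defence against intracellular parasites (probe at chr11:58023620-58023679), had log2 ratios of -2.02 and -2.01 on day 3 and 0.69 and 0.67 on day 5. It was thus 4.05-fold lower in deleted epithelium on day 3 and 1.60-fold higher on day 5. Iigp1, another GTPase of this family, had -1.46 and -1.74 on day 3 and 1.40 and 1.41 on day 5. Its ratios changed side between the days with nearly the same size.

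Irgm1, a regulator of these GTPases (probe at chr11:48708990-48709049), had -1.72 and -1.79 on day 3 but -0.068 and 0.081 on day 5. Its day 5 ratios lie on both sides of 0. Gbp2, a guanylate-binding protein, had -1.22 and -0.72 on day 3 and 0.88 and 0.48 on day 5. Gbp3, of the same family, had -0.62 and -0.75 on day 3 and -0.21 and -0.16 on day 5, so it alone of the 5 GTPases was below control on all 4 arrays.

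Ifitm3, which blocks the fusion of viruses with endosomes (probe at chr7:140861012-140861071), followed the GTPases. Its day 3 log2 ratios were -1.46 and -1.13, and its day 5 ratios were 0.85 and 0.35. Cxcl10, a chemokine that attracts T cells and is a textbook target of interferon gamma, had -0.64 and -0.16 on day 3 and 0.68 and 0.28 on day 5. Irf1, a transcription factor that interferon gamma induces, had the same order with small values, -0.25 and -0.22 on day 3 and 0.13 and 0.16 on day 5. Irf1 has a second probe tested in the deletion whose sign on day 5 differs from this one.

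The oligoadenylate synthetase genes, the Isg15 system, Rsad2 and the regulator Irf7 had their low values on day 5. Of the 5 oligoadenylate synthetase genes, 4 were above control on both day 3 arrays (38.8% of all genes), and all 5 were below control on both day 5 arrays (34.7% of all genes), and the family median was 0.35 on day 3 and -1.12 on day 5. The 3 genes of the Isg15 system, which are Isg15, Usp18 and the ligase Trim25, were above control on both day 3 arrays and below it on both day 5 arrays. Rsad2, or viperin, an enzyme that makes a chain-terminating nucleotide, had log2 ratios of 0.55 and 0.60 on day 3 and -2.26 and -1.66 on day 5. It was 3.89-fold lower in deleted epithelium on day 5 by this probe. Its other 2 probes had lower signal and smaller ratios of the same signs, with means of 0.21 and 0.13 on day 3 and -0.67 and -0.62 on day 5.

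Irf7, the transcription factor that amplifies type I interferon responses, had 1.27 and 0.68 on day 3 and -1.28 and -0.84 on day 5. It had the highest day 3 mean of the tested members, 1.96-fold above control, and was 2.09-fold below control on day 5. Oasl2, an oligoadenylate synthetase-like protein, had 0.57 and 0.73 on day 3 and -1.26 and -1.48 on day 5. Oasl1, which in mice restrains the translation of Irf7, had 0.25 and 0.79 on day 3 and -0.83 and -1.41 on day 5. In Oas1a, which activates an RNA-degrading enzyme, the day 3 ratios of 0.0096 and 0.19 lay close to 0 and the day 5 ratios were -1.46 and -1.53.

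Ifit1, which binds RNA lacking the host cap (probe at chr19:34715303-34715362), had 0.38 and 0.41 on day 3 and -1.54 and -1.26 on day 5. Isg15, a ubiquitin-like protein, had 0.42 and 0.057 on day 3 and -1.48 and -1.22 on day 5. This probe is placed by the array files on chromosome 17 at 45870420 to 45870479, whereas RefSeq has the gene on chromosome 4, so its identity rests on the file's name alone. Usp18, which removes Isg15 from proteins, had 0.29 and 0.13 on day 3 and -0.95 and -0.77 on day 5. Ifih1, a sensor of viral RNA, with 0.51 and 0.53 on day 3 and -0.37 and -0.25 on day 5, had the same order of the days.

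**Figure D1:**
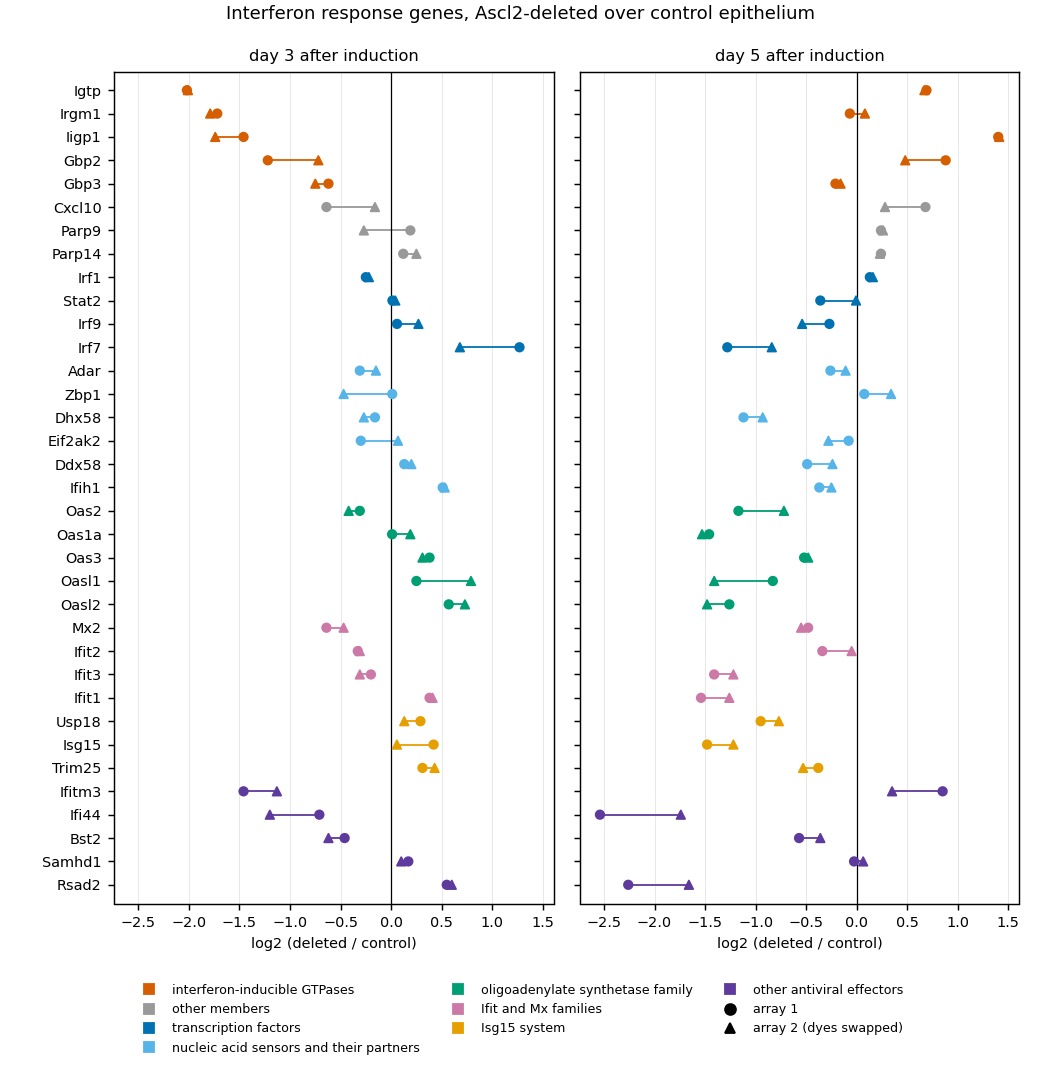
Log2 ratio of Ascl2-deleted over control epithelium for each of the 35 tested interferon response genes, on the 2 arrays of day 3 (left) and of day 5 (right); circles and triangles are the dye-swapped arrays of 1 RNA pair, and colours are the genes' roles. All 5 GTPases lie left of 0 on day 3, and all 5 oligoadenylate synthetase genes lie left of 0 on day 5.

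A smaller number of members kept 1 sign over both days. Lower on all 4 arrays were 9 of 35 members (25.7%, against 13.3% of all genes tested), and higher on all 4 was 1 of 35 (12.7% of all genes). Ifi44, an interferon-induced protein of uncertain function, had the lowest mean, with log2 ratios of -0.71 and -1.20 on day 3 and -2.54 and -1.74 on day 5. Its mean was -1.55 ± 0.84 (SD, n = 2 RNA pairs; limma adjusted p = 0.446), and in deleted epithelium it was well above background on 3 of 4 arrays. Mx2, a dynamin-like antiviral GTPase, had -0.64 and -0.47 on day 3 and -0.48 and -0.55 on day 5, so its 4 values lay within a narrow range (mean -0.53 ± 0.026, SD, n = 2; limma adjusted p = 0.377). Bst2, or tetherin, which holds budding viruses at the cell surface, had -0.46, -0.62, -0.57 and -0.36 in the same order.

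Of the others below control on all 4 arrays, Ifit3 had -0.20 and -0.31 on day 3 and -1.41 and -1.22 on day 5. Its other tested probe had smaller ratios, -0.17 and -0.034 on day 3 and -0.42 and -0.15 on day 5. Oas2 had -0.31 and -0.42 on day 3 and -1.17 and -0.72 on day 5. Dhx58, a partner of the RNA sensors, had -0.16 and -0.27 on day 3 and -1.12 and -0.93 on day 5. These 3 genes shared the day 5 deficit of Ifit1 and Oasl2 without being above control on day 3. Ifit2 had -0.33 and -0.31 on day 3 and -0.34 and -0.05 on day 5. Adar, an RNA-editing enzyme, had -0.31, -0.15, -0.26 and -0.11, and a further Adar probe differed in sign on day 3. Parp14, an ADP-ribosyltransferase, was the member above control on all 4 arrays by its brightest probe, with 0.12, 0.25, 0.24 and 0.23. Of its other tested probes, 1 had mixed signs (-0.21, 0.011, 0.37 and -0.0078) and 1 was above control on all 4 arrays.

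The regulators of the type I response other than Irf7 differed little. Stat2 had 0.013 and 0.041 on day 3 and -0.36 and -0.0067 on day 5. Irf9 had 0.058 and 0.27 on day 3 and -0.27 and -0.54 on day 5, and its other tested probe had the opposite sign on day 3. The tested members not given by array, which are Oas3, Ddx58, Trim25, Zbp1, Eif2ak2, Parp9 and Samhd1, had day means between -0.23 and 0.37 on day 3 and between -0.50 and 0.25 on day 5.

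Over both days the mean log2 ratio was below 0 in 30 of 35 members, against 50.1% of all 16314 genes tested, and the median was -0.26 against -0.00043 for all genes. The members' median was -0.11 on day 3 and -0.36 on day 5, and by the day 3 pair alone 19 of 35 were below 0. With each array centred on its median in place of the loess fit, 34 of 35 members and 66.0% of all genes were below 0. At least 2-fold lower on both day 5 arrays were 7 members (0.693% of all genes), which are Ifi44, Rsad2, Oas1a, Oasl2, Ifit1, Isg15 and Ifit3. For Rsad2 and Ifit3 this holds by the brightest probe, and their other tested probes had smaller ratios. At least 2-fold lower on both day 3 arrays were 4 members (1.68% of all genes), which are Igtp, Iigp1, Irgm1 and Ifitm3. At least 2-fold higher were 0 members on day 3 (1.7% of all genes) and Iigp1 alone on day 5 (1.13%).

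No member passed the test of deleted over control when both days were taken as replicates (limma, Benjamini-Hochberg over all genes, threshold 0.05), and nor did any of the 16314 genes (0% called). At an unadjusted p under 0.05, 8 members were lower (4.69% of all genes) and 0 higher (5%). Of the 8, Mx2, Ifi44, Oas2, Ifit2, Ifit3 and Gbp3 were not tested in the sorts, which share the estimate of spread. The smallest adjusted p among the members was 0.377, of Mx2. With the RNA pair as a random block over all 8 arrays, Mx2 (limma adjusted p = 0.0297) and Ifi44 (limma adjusted p = 0.0411) were called, as were 1.61% of all genes. Neither gene was well above background on any sort array, so spots near background enter the spread behind these calls. Left with the day 5 pair alone, 19 members were called (7.68% of all genes), and with the day 3 pair alone also 19 (38.5%), but a lone pair is then assumed to vary as the 2 sorts did.

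The difference between the days was tested as the day 5 minus the day 3 log2 ratio, with a spread that comes from the sorts alone, since each day is 1 RNA pair. By this test 23 of 35 members differed between the days (28.3% of all genes), and the difference was below 0 in 20 members (49.7% of all genes). Among the 23, the ratio was higher on day 5 in 7 (15.8% of all genes) and lower in 16 (12.5%). The 7 are Iigp1, Igtp, Ifitm3, Irgm1, Gbp2, Cxcl10 and Gbp3, with differences between 0.50 and 3.00. However, 11 of the 23, among them Iigp1, Gbp2, Rsad2, Ifit1 and Ifi44, were not tested in the sorts, so their standard errors are those of spots near background and their p-values are not given. Of the 21 members tested in both comparisons 12 passed (30.1% of all such genes), 3 with a higher ratio on day 5 and 9 with a lower one. Igtp rose by 2.70 with a standard error of 0.17 (limma adjusted p = 0.00425). Irf7 fell by 2.03 with a standard error of 0.15 (limma adjusted p = 0.00549). The other 8 that fell and were tested in both are Oasl2, Oasl1, Oas1a, Isg15, Ifih1, Trim25, Dhx58 and Irf9. The median SD between the sorts was 0.0458 for genes tested in the deletion alone, against 0.0808 for genes tested in the sorts. With the scanner's own log ratios or with median centring, 0 members passed (smallest adjusted p of 0.239 and 0.184), although Iigp1 still differed by 3.26 and 3.06 and Igtp by 2.77 and 2.53. The size for Rsad2 ran from -3.85 with the scanner's ratios to -1.39 with the mean of its probes.

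**Figure D2:**
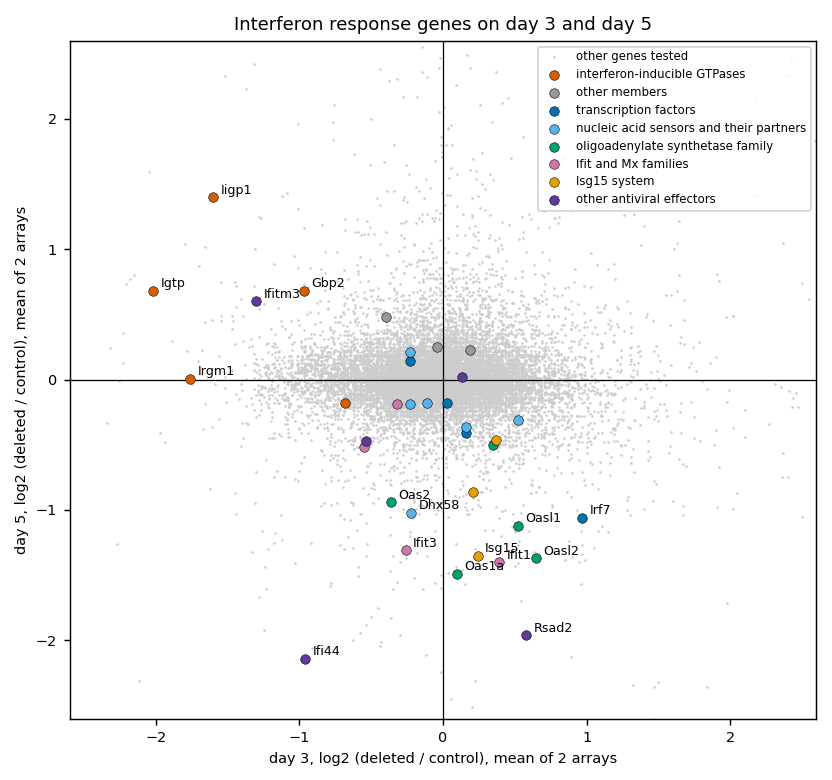
Mean log2 ratio of deleted over control on day 3 (x) and day 5 (y); grey points are all other genes tested in the deletion and coloured points the 35 tested interferon response genes, named where either mean reaches 0.9, while 65 genes lie outside the axes. Igtp, Iigp1, Gbp2 and Ifitm3 lie in the upper left and Rsad2, Irf7, Oasl2 and Ifit1 in the lower right, with Ifi44 at the lower left.

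In the plot of day 3 against day 5, 14 members were above control on both day 3 arrays and below it on both day 5 arrays (40% of members, against 14.7% of all genes). The reverse held for 6 members, Irf1, Gbp2, Igtp, Iigp1, Cxcl10 and Ifitm3 (17.1%, against 13.4% of all genes). With median centring these counts were 3 and 1 (2.93% and 2.11% of all genes). With members grouped by role, the sign of each group's median was compared between settings, separately for each day. Except for the transcription factors, the sign on each day was the same under the 7 other settings of signal, normalization, filter and probe. For the GTPases the medians ran from -1.76 to -1.58 on day 3 and 0.42 to 0.71 on day 5. For the oligoadenylate synthetase genes they ran from 0.19 to 0.50 on day 3 and -1.42 to -1.12 on day 5. The day 3 median of the 4 transcription factors was 0.094 with loess and -0.074 with median centring. Judged by the mean of the 2 dye-swapped arrays, which balances the dyes, median centring gave 12 and 7 members (28% and 16.3% of all genes), and the loess fit 14 and 9 (26.7% and 24.8% of all genes).

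Which of the 2 RNAs differed between the days can be read from the processed intensity in each, taken as log2 over the median of the tested genes in that RNA on that array. This reading was added after the ratios had been seen. It sets different slides side by side and has no test. In deleted RNA, 14 members were at least 2-fold lower on day 5 than on day 3 (10.8% of all genes), and in control RNA 2 were (4.58%). At least 2-fold higher on day 5 were 6 members in deleted RNA (10.7%) and 3 in control RNA (6.07%).

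Oasl2 in deleted RNA stood at 3.57 and 3.63 on day 3 and at 1.78 and 1.54 on day 5, while in control RNA it stood at 2.96 and 2.86 on day 3 and at 3.05 and 3.08 on day 5. Its level thus differed between the days in deleted RNA and hardly in control RNA. Isg15, Oasl1 and Ifit1 had the same form, with day 5 minus day 3 differences in level of -1.53, -1.86 and -1.56 in deleted RNA and of 0.13, -0.11 and 0.39 in control RNA. Rsad2 differed in both RNAs, by -2.59 in deleted RNA and by 1.27 in control RNA. Irf7 differed by -2.92 in deleted RNA and by -0.50 in control RNA.

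Igtp was the reverse case. In deleted RNA it stood at 4.85 and 5.01 on day 3 and at 5.68 and 5.76 on day 5, while in control RNA it stood at 6.87 and 7.08 on day 3 and at 5.01 and 4.99 on day 5. The larger difference, -1.98, was thus in control RNA, against 0.79 in deleted RNA. Iigp1 differed in both, by 2.21 in deleted RNA and by -1.04 in control RNA, and Irgm1 likewise by 1.02 and by -0.74. Ifitm3 differed by 2.01 in deleted RNA and by 0.13 in control RNA. The day difference of Igtp thus lay mainly in control RNA and that of Ifitm3 in deleted RNA.

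**Figure D3:**
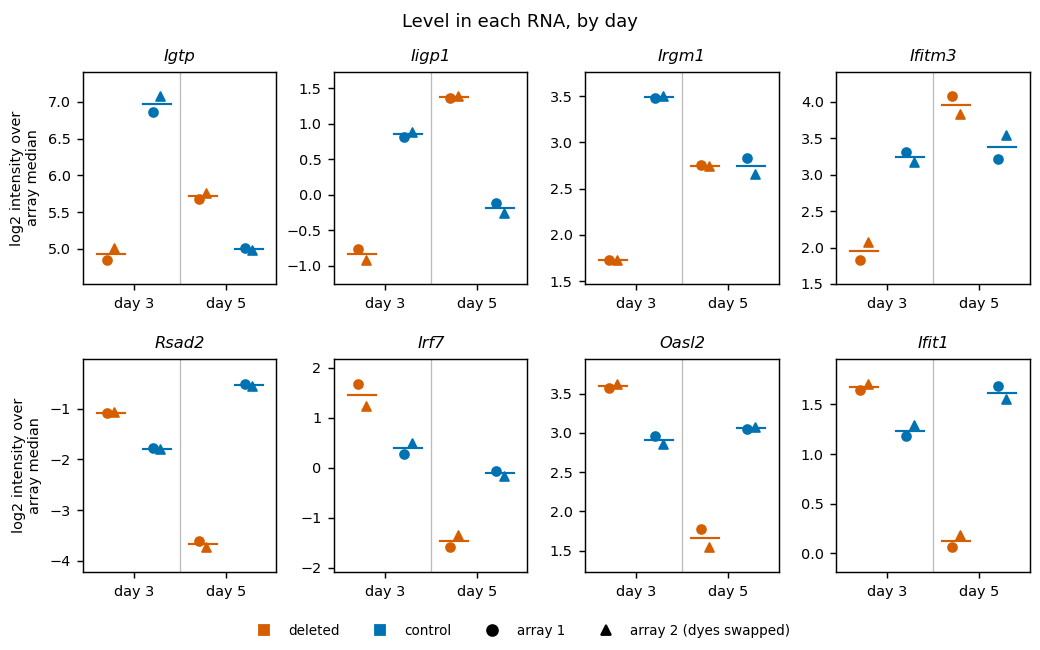
Level of 8 interferon response genes in Ascl2-deleted (orange) and control (blue) RNA on day 3 and day 5, as log2 processed intensity over the median of the tested genes on that array; circles and triangles are the dye-swapped arrays, lines their mean, and each panel has its own scale. Igtp in control RNA stands at 6.87 and 7.08 on day 3 and at 5.01 and 4.99 on day 5, while Rsad2, Irf7, Oasl2 and Ifit1 differ between the days mainly in deleted RNA.

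Other genes of the pathway were taken from lists by role. Of the interferons themselves, 11 were on the array and 6 were tested. The day means of the 6 lay between -0.02 and 0.19 on day 3 and between -0.11 and 0.14 on day 5. Ifna4, Ifna11, Ifnb1, Ifne1 and Ifnk were not well above background on any deletion array. Ifng, which encodes interferon gamma, had 0.24, 0.055, 0.22 and 0.07 over the 2 arrays of day 3 and then of day 5.

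Of the 6 receptor genes, 5 were above control on both day 3 arrays (38.8% of all genes). The median of the 6 was 0.59 on day 3, against -0.11 on day 5. Ifngr1 and Ifngr2, the chains of the interferon gamma receptor, had 0.74 and 0.59 and 0.73 and 0.83 on day 3, and on day 5 they had 0.055 and 0.075 and -0.28 and -0.26. Ifnar1, a chain of the type I receptor, had -0.20 and 0.0059 on day 3 and 0.16 and -0.14 on day 5, and its partner Ifnar2 had 0.43 and 0.89 on day 3 and -0.14 and -0.47 on day 5. Il28ra, the specific chain of the type III receptor, had 0.26 and 0.65 on day 3 and 0.24 and -0.35 on day 5. Il10rb, its partner, had 0.56 and 0.49 on day 3 and -0.25 and -0.092 on day 5. Apart from Ifnar1, the receptor genes were thus above control on day 3, as were 4 of the 5 oligoadenylate synthetase genes and the Isg15 system.

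Of 15 signalling genes tested in both comparisons, 4 rose and 1 fell between the days by the test. Of all genes tested in both, 30.1% passed it in either direction. Socs1, an inhibitor of Jak kinases, had -0.51 and -0.53 on day 3 and 1.09 and 1.16 on day 5. Socs3, its relative, had 0.11 and -0.091 on day 3 and 1.97 and 2.21 on day 5. Jak2 and Stat3 were above control on all 4 arrays, with means of 0.32 and 0.41. Among 12 tested genes of nucleic acid sensing 5 were above control on all 4 arrays (12.7% of all genes) and 0 below (13.3%). Ifi204, a DNA sensor, had the highest mean, 0.70.

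The 45 other interferon-stimulated genes tested had a median of 0.10 on day 3 and -0.033 on day 5. Of the 29 also tested in the sorts, 7 rose and 8 fell between the days by the test (30.1% of all such genes passed it). The 45 include 8 further interferon-inducible GTPases, a family picked out after the values were seen. Of these 8, 6 were below control on both day 3 arrays and above it on both day 5 arrays (13.4% of all genes). Tgtp, an immunity-related GTPase, had -1.87 and -2.10 on day 3 and 0.69 and 0.64 on day 5, nearly the values of Igtp. Gbp1 had -1.02 and -0.93 on day 3 and 1.24 and 1.08 on day 5, and Irgm2, Ifi47, Gbp6 and Gvin1 had day 3 means near its own. Gbp4 and Gbp5 did not share this, with values above 0 on all 4 arrays. Rtp4, a chaperone induced by type I interferon, had 0.20 and -0.09 on day 3 and -2.75 and -2.14 on day 5. Cmpk2, which supplies the nucleotide that Rsad2 uses, had 0.27 and 0.47 on day 3 and -0.99 and -0.97 on day 5, so it lay with Rsad2 on both days.

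Markers of other cells moved with the days. Of 15 T cell and intraepithelial lymphocyte markers, all tested, 13 were above control on both day 3 arrays (38.8% of all genes). The 15 markers had a median of 0.96 on day 3 and -0.028 on day 5. Their summed processed intensity was 130129 to 134309 in deleted RNA and 49548 to 51118 in control RNA on day 3, and 71590 to 79298 in deleted RNA and 70304 to 74024 in control RNA on day 5.

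For macrophage and dendritic cells, 12 of 14 markers were tested, with a median of 0.22 on day 3 and of 0.081 on day 5. On day 3 median and summed intensity point opposite ways. Of the 12 markers, 7 were above control on both arrays (38.8% of all genes) and 5 were below it on both (39.5%). The 5 are Csf1r, Itgam, Cd14, Aif1 and Lyz2, the macrophage lysozyme, which had the lowest values, -1.14 and -0.88. Their sum was 58956 to 63402 in deleted RNA and 102573 to 104906 in control RNA on day 3, and 54888 to 61042 in deleted RNA and 40422 to 44517 in control RNA on day 5. Siglech, which marks the plasmacytoid dendritic cell, a main source of type I interferon, was not well above background on any deletion array. For B and plasma cells, 4 of 8 markers were tested, whose median was 0.69 on day 3 and 0.16 on day 5, with sums of 2767 to 2795 in deleted RNA and 1214 to 1225 in control RNA on day 3, and of 1210 to 1301 in deleted RNA and 936 to 954 in control RNA on day 5.

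The fibroblast genes gave the widest difference. The 6 tested of 10 endothelial and fibroblast markers had a median of -0.53 on day 3 and 4.54 on day 5. Their sum was 5607 to 6080 in deleted RNA and 5973 to 6417 in control RNA on day 3, and 26736 to 30131 in deleted RNA and 1990 to 2155 in control RNA on day 5. The endothelial markers Pecam1, Cdh5 and Tie1 were not well above background on any deletion array. The part of these cells in the values of the interferon response genes was not tested.

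**Figure D4:**
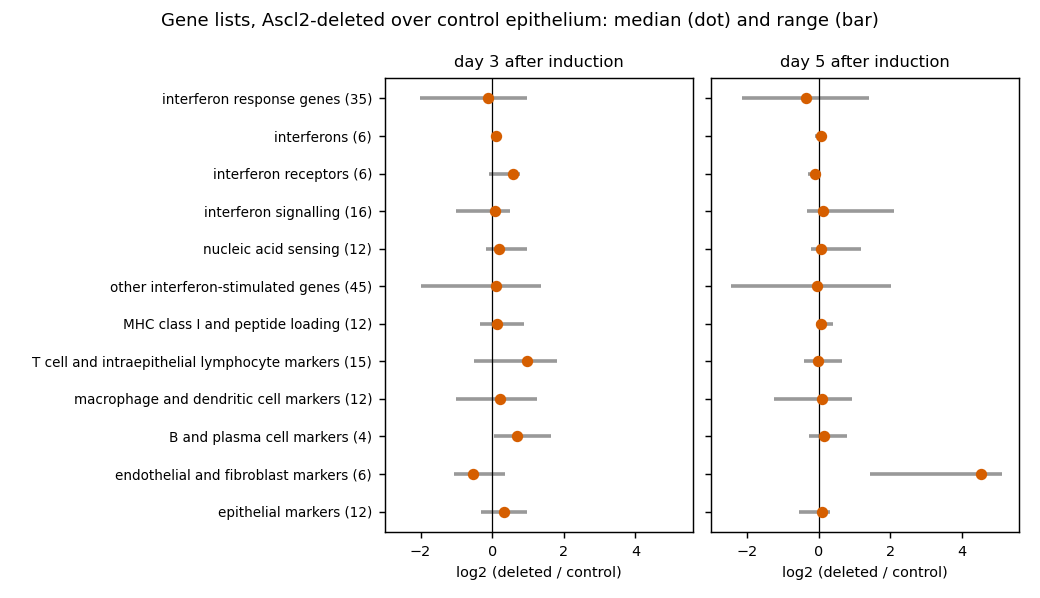
Median (dot) and range (bar) of the mean log2 ratio of deleted over control for each gene list on day 3 (left) and day 5 (right), with the number of tested genes in brackets. The interferon response genes span 0 on both days, T cell markers have a median of 0.96 on day 3, and endothelial and fibroblast markers a median of 4.54 on day 5.

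Between the sorted populations the interferon response genes differed little. Of 21 tested members 12 had a mean log2 ratio of GFPhi over GFPlo below 0 (49.9% of all 10634 genes tested), with a median of -0.038 against 0.0003 for all genes. None passed the test (limma adjusted p of 1 for each), nor did any of the 10634 genes (0% called), and at an unadjusted p under 0.05 there were 0 members, against 265 genes higher (2.49%) and 267 lower (2.51%). The 14 remaining members of the 35, among them Ifit1, Rsad2, Oas2, Gbp2, Iigp1 and Cxcl10, were not well above background on every array of either sorted population.

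Ifitm3 had the largest mean of the members in the sorts. Its log2 ratios of GFPhi over GFPlo were 0.63 and 0.71 for the arrays of sort 1 and 0.27 and 0.80 for those of sort 2. The mean of 0.60 is a level 1.52-fold higher in GFPhi cells (limma adjusted p of 1). With either deletion day left out its limma adjusted p was 0.0461 (1.2% of all genes were then called), and with the sorts fitted alone it was 0.0607. Ddx58, the RNA sensor RIG-I, was the other of 2 members above GFPlo on all 4 arrays (9.52%, against 16.4% of all genes), with 0.37, 0.24, 0.061 and 0.0078.

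Below GFPlo on all 4 arrays were 5 of 21 members (23.8%, against 17% of all genes). Oas1a had -0.30 and -0.02 in sort 1 and -0.42 and -0.088 in sort 2. Oasl1 had -0.47, -0.12, -0.078 and -0.035, and Zbp1, a sensor of Z-form nucleic acids, had -0.11, -0.48, -0.011 and -0.011. Irgm1 had -0.11, -0.054, -0.17 and -0.11, and Stat2 had -0.17, -0.17, -0.00073 and -0.018. In sort 2 most of these values lay close to 0. Irf7 had -0.043 and -0.44 in sort 1 and 0.005 and -0.029 in sort 2, Irf1 had 0.024, 0.084, -0.0059 and 0.28, and Irf9 had 0.0017, -0.03, 0.10 and 0.10. The largest of the pathway genes with 1 sign was Tgtp, with 0.61 and 0.53 in sort 1 and 0.35 and 0.16 in sort 2.

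**Figure D5:**
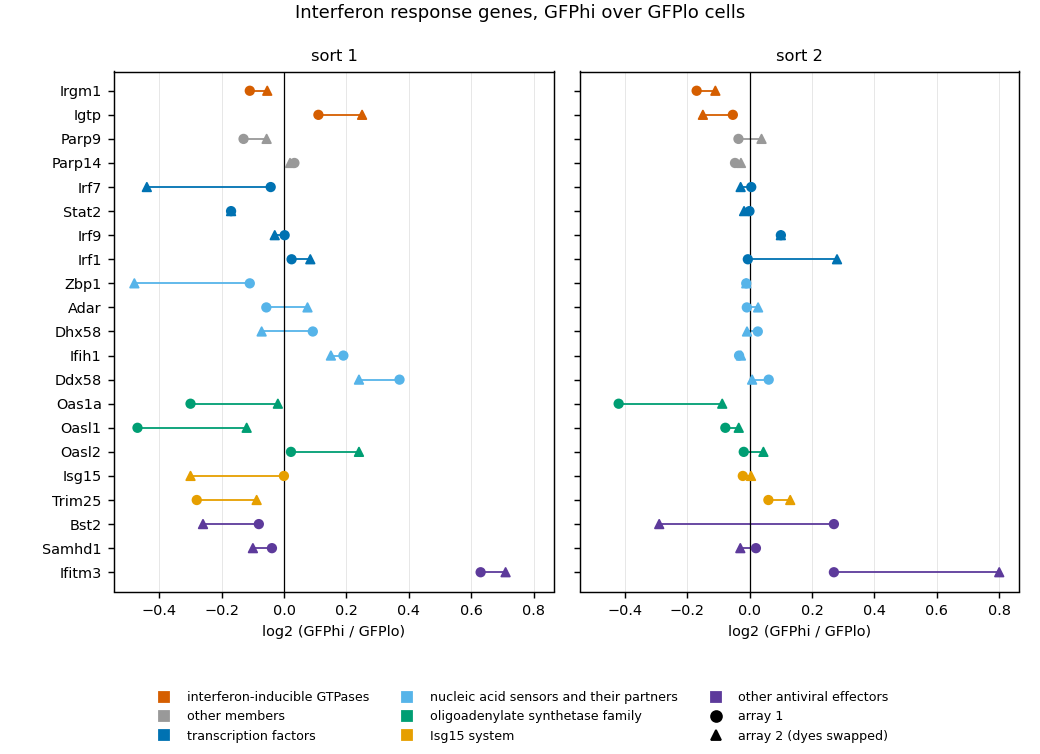
Log2 ratio of GFPhi over GFPlo cells for each of the 21 tested interferon response genes, on the 2 arrays of sort 1 (left) and of sort 2 (right); circles and triangles are the dye-swapped arrays of 1 RNA pair, and colours are the genes' roles. Ifitm3 lies furthest to the right, between 0.27 and 0.80, and the other members lie between -0.48 and 0.37.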

How the data were processed

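The arrays are Agilent two-colour whole mouse genome arrays. RNA was isolated with Trizol and linearly amplified with label, per the labels' protocols. Arrays were read with Agilent Feature Extraction 9.5.3.1, per the file headers, and the deposited files hold the linear intensity of each spot and its local background, a background-subtracted and dye-normalized processed intensity, and log10 ratios (red, Cy5, divided by green, Cy3). In the deposited series matrix the values are log2 ratios, which correlated with the turned scanner ratios at r of 0.95 to 0.999 with column medians of -0.0224 to 0.0347, so scale and direction are known and the authors' centring is not. Day 5 files are rounded to 3 significant digits and have symbols turned to dates, so names were joined by feature number from a day 3 file.

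Mean signals were background-corrected with normexp (offset 50) and loess-normalized within each array in limma 3.58.1 (R 4.3.3, statmod 1.5.0), with 1639 control spots at weight 0 and outlier spots left out. Ratios were turned to deleted over control or GFPhi over GFPlo by the labelled dyes, and averaged per probe and then per RNA pair. One lmFit and eBayes model held the 4 RNA pairs, 1 coefficient per comparison, and p-values were adjusted by Benjamini-Hochberg over all genes tested. In the sorts and the deletion they rest on a spread shared by both comparisons. That spread holds the difference between the 2 sorts and that between the 2 deletion days, with their animals and slides. For the difference between the days the spread comes from the sorts alone. The fit was tested on simulated data. The offset pulls the ratios of dim probes towards 0.

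Members and lists were chosen with earlier results of these data known. Values on every array are given for up to 12 members with 1 sign on all 4 deletion arrays, up to 8 in the sorts, the 6 with the largest day difference, Irf1, Irf7, Irf9, Stat2 and the receptors, and up to 4 genes per pathway list. A gene that this rule names is not reported here. Members shown beside these were chosen after their values were seen.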

Additional observations from a re-analysis of the deposited data

Results flagged for a closer look

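For 26 members the deleted-over-control ratio was flagged by 1 of 2 rules. Either the day 3 and day 5 ratios differed by the test, or both arrays of one day lay above 0 and both of the other below it. The test flagged 23 of 35 members (28.3% of all genes). By signs, 14 members were above control on day 3 and below it on day 5 (14.7% of all genes), and 6 the reverse (13.4%). The share of all genes that meet either rule was not determined. The values are day 5 minus day 3 log2 ratios. Each day is 1 RNA pair on its own slide, and the test takes its spread from the sorts alone, where 11 of the members past it are near background. With the scanner's own ratios or median centring none of the 26 passed it.

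The largest negative differences were -2.54 for Rsad2, -2.03 for Irf7, -2.02 for Oasl2, -1.79 for Ifit1, -1.64 for Oasl1, -1.59 for Oas1a and -1.59 for Isg15. Smaller ones were -1.18 for Ifi44, -1.07 for Usp18, -1.06 for Ifit3, -0.85 for Oas3, -0.83 for Ifih1, -0.83 for Trim25, -0.81 for Dhx58, -0.58 for Oas2 and -0.57 for Irf9. The positive differences were those of the GTPases, Ifitm3 and Cxcl10, with 3.00 for Iigp1, 2.70 for Igtp, 1.90 for Ifitm3, 1.76 for Irgm1, 1.65 for Gbp2, 0.88 for Cxcl10 and 0.50 for Gbp3.

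For 3 members the arrays of the 2 days lay on opposite sides of 0 but the difference did not pass the test. These were Ddx58 with -0.53 (limma adjusted p = 0.0841), Irf1 with 0.38 (limma adjusted p = 0.0764) and Stat2 with -0.21 (limma adjusted p = 0.299).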

How the results depend on the processing

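The count of members that differed between the days depended most on the processing: 23 as reported (4614 of all genes), 0 with the scanner's own ratio (0 of all genes) and 0 with median centring (0 of all genes). At an unadjusted p under 0.05, limma gave 15 members (18.8% of all genes) and 21 members (16.1%) under those settings. The authors' matrix gave 1770 genes. The direction held for all 23 under the 7 alternatives of signal, filter and probe; the cause of the lost calls was not tested. Median centring also left 5 members lower on all 4 deletion arrays, 0 higher on all 4, 3 higher on day 3 and lower on day 5, and 1 the reverse. Without the signal filter, 19 members were below 0 in the sorts and 2 higher on all 4 deletion arrays, and with the mean of probes 2 were also higher on all 4. With the RNA pair, which is also the slide, as a random block, limma called 263 genes and 2 members in the deletion. The 2 members, Mx2 and Ifi44, were near background in the sorts, which share the estimate of spread. The same fit called 38 genes in the sorts, where the sorts fitted alone gave 65. Leaving out 1 RNA pair gave 0 to 6281 genes and 0 to 19 members called in the deletion, 0 to 128 genes and 0 to 1 members in the sorts, and 19 to 30 members below 0 in the deletion. The low bounds come from leaving out sort 1 or 2 and the calls from leaving out day 3 or day 5, where the lone day is assumed to vary like the sorts. No paired analysis was possible because each RNA pair is already 1 ratio on shared arrays. Probes near background have compressed ratios, which limits dim members such as Mx1.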

Other observations

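Some interferon-stimulated genes outside the 37, picked out after their values were seen, kept 1 sign on all 4 deletion arrays. Casp4, the mouse inflammatory caspase that senses bacterial lipopolysaccharide in the cytosol and is induced by interferon, was above control on all 4 arrays, with log2 ratios of deleted over control of 1.49 and 0.80 on day 3 and 1.87 and 2.17 on day 5. Plscr1, a phospholipid scramblase, had 0.54 and 0.47 on day 3 and 0.30 and 0.28 on day 5, and Ube1l, the activating enzyme of Isg15 conjugation, had 0.52 and 0.46 on day 3 and 0.0019 and 0.11 on day 5. Sp100, a nuclear body protein, was below control on all 4 arrays, with -0.24 and -0.13 on day 3 and -0.97 and -0.77 on day 5. None of these 4 passed the limma test over both days, with adjusted p from 0.385 to 0.557. The chemokine genes Ccl5 and Cxcl11 were above control on day 3, with 1.45 and 1.30 and with 0.84 and 0.95, unlike Cxcl10, and on day 5 they had -0.0082 and -0.14 and -0.18 and -0.24. Between the days Ccl5 fell by 1.45 (limma adjusted p = 0.00565). Ccl5 is also made by T cells, whose markers were above control on the same day, and the part of those cells in its value was not tested.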
